A study of Mus musculus with 12 samples.

Results

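The intercalated disc junction genes described here are 10 genes, Dsp, Pkp2, Jup, Dsg2, Dsc2, Cdh2, Ctnnb1, Ctnna3, Vcl and Tjp1, of the 43686 rows in the gene table, of which 17155 had enough counts to be tested. They were given by name and not by a rule on measured values, although earlier results of these data were known when they were chosen. Of these, 9 were found by the table's gene name column. Dsp has no entry in that column, and its row was found through the table's own KEGG annotation, which names it desmoplakin, so that 10 of 10 were tested. RNA-seq was carried out on ventricular wall tissue of mice of the C57BL/6 strain by the labels and C57BL/6J by the study's text, with 6 libraries of wild type hearts (WT) and 6 of hearts lacking Sdhaf4 (KO). Sdhaf4 is an assembly factor of succinate dehydrogenase, the enzyme shared by the citric acid cycle and the respiratory chain, and the study examined these mice as a model of dilated cardiomyopathy. By the study's methods both groups carried the floxed allele (Sdhaf4 fl/fl), and KO mice also carried Ckmm-Cre, which is driven by the muscle creatine kinase promoter and deletes in the muscle cells of heart and skeletal muscle rather than in the other cells of the ventricular wall. WT mice carried no Cre, so the presence of Cre and the loss of Sdhaf4 cannot be told apart. The labels give the age as postnatal month 2 in both groups. The study's text gives a younger age for the sequencing, and its reporting summary ages that include the one in the labels. Sequencing addressed which molecular changes accompany the cardiomyopathy. Nothing in the labels says that the libraries came from separate animals, so the p-values measure only the spread between these samples.

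Cardiomyocytes are joined end to end at the intercalated disc, which carries force and current from one cell to the next. Desmosomes tie the intermediate filaments of neighbouring cells together, adherens junctions anchor the actin of the last sarcomere, and the gap junctions between them pass current. Inherited defects of desmosomal proteins are a known cause of arrhythmogenic cardiomyopathy, and cardiac desmosomal and adherens components are mixed in one structure, the area composita, which holds αT-catenin.

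Library totals ran from 23747014 to 27159228 counts in WT and from 26542930 to 31393393 in KO, and each member had between 501 and 47012 counts in every library. Sdhaf4 itself fell from 25.2 ± 5.80 CPM (counts scaled to a common library size, mean ± SD, n = 6) in WT to 2.40 ± 0.170 CPM in KO. Cardiomyocyte markers summed to between 53124 and 58662 CPM in WT, with a median of 56854 CPM. In KO they summed to between 45790 and 63827 CPM, with a median of 49904 CPM. The atrial markers Myl7 and Sln were at or near 0 in both groups, at most 0.293 CPM in any library. The third atrial marker, Myl4, was at 2.12 ± 0.586 CPM in WT and 3.49 ± 0.703 CPM in KO and was called higher (adjusted p = 0.00515, edgeR). CPM were computed on library totals scaled by TMM, and a gene was called where the adjusted p of edgeR's quasi-likelihood test, over all rows tested, was under 0.05.

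The members split in direction. Vcl, Cdh2 and Dsp, which encode vinculin, N-cadherin and desmoplakin, were higher in KO hearts, by 79.6%, 38.6% and 20.1%. Dsg2, Ctnna3, Pkp2 and Tjp1, which encode desmoglein-2, αT-catenin, plakophilin-2 and the scaffold ZO-1, were lower, with mean levels that fell by 42.0%, 41.3%, 27.5% and 12.8%. Jup, Dsc2 and Ctnnb1 did not pass the test. In all, 7 of 10 members were called, 3 higher and 4 lower, where 51.1% of all rows tested were called, 25.6% higher and 25.5% lower. The groups did not overlap for 6 of 10 members, 3 in each direction, against 30.1% of all rows, 14.9% with KO higher and 15.2% with KO lower. With so many rows past the threshold, nothing about the members as a list is read from their count. The median log2 fold change of the members was 0.00, as it was over all rows (0.00), and the median absolute log2 fold change was 0.36 against 0.30. Their summed level was 2995 to 3228 CPM in WT and 3116 to 3788 CPM in KO. In tissue RNA, fewer cells of a type and less RNA per cell cannot be told apart.

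**Figure D1:**
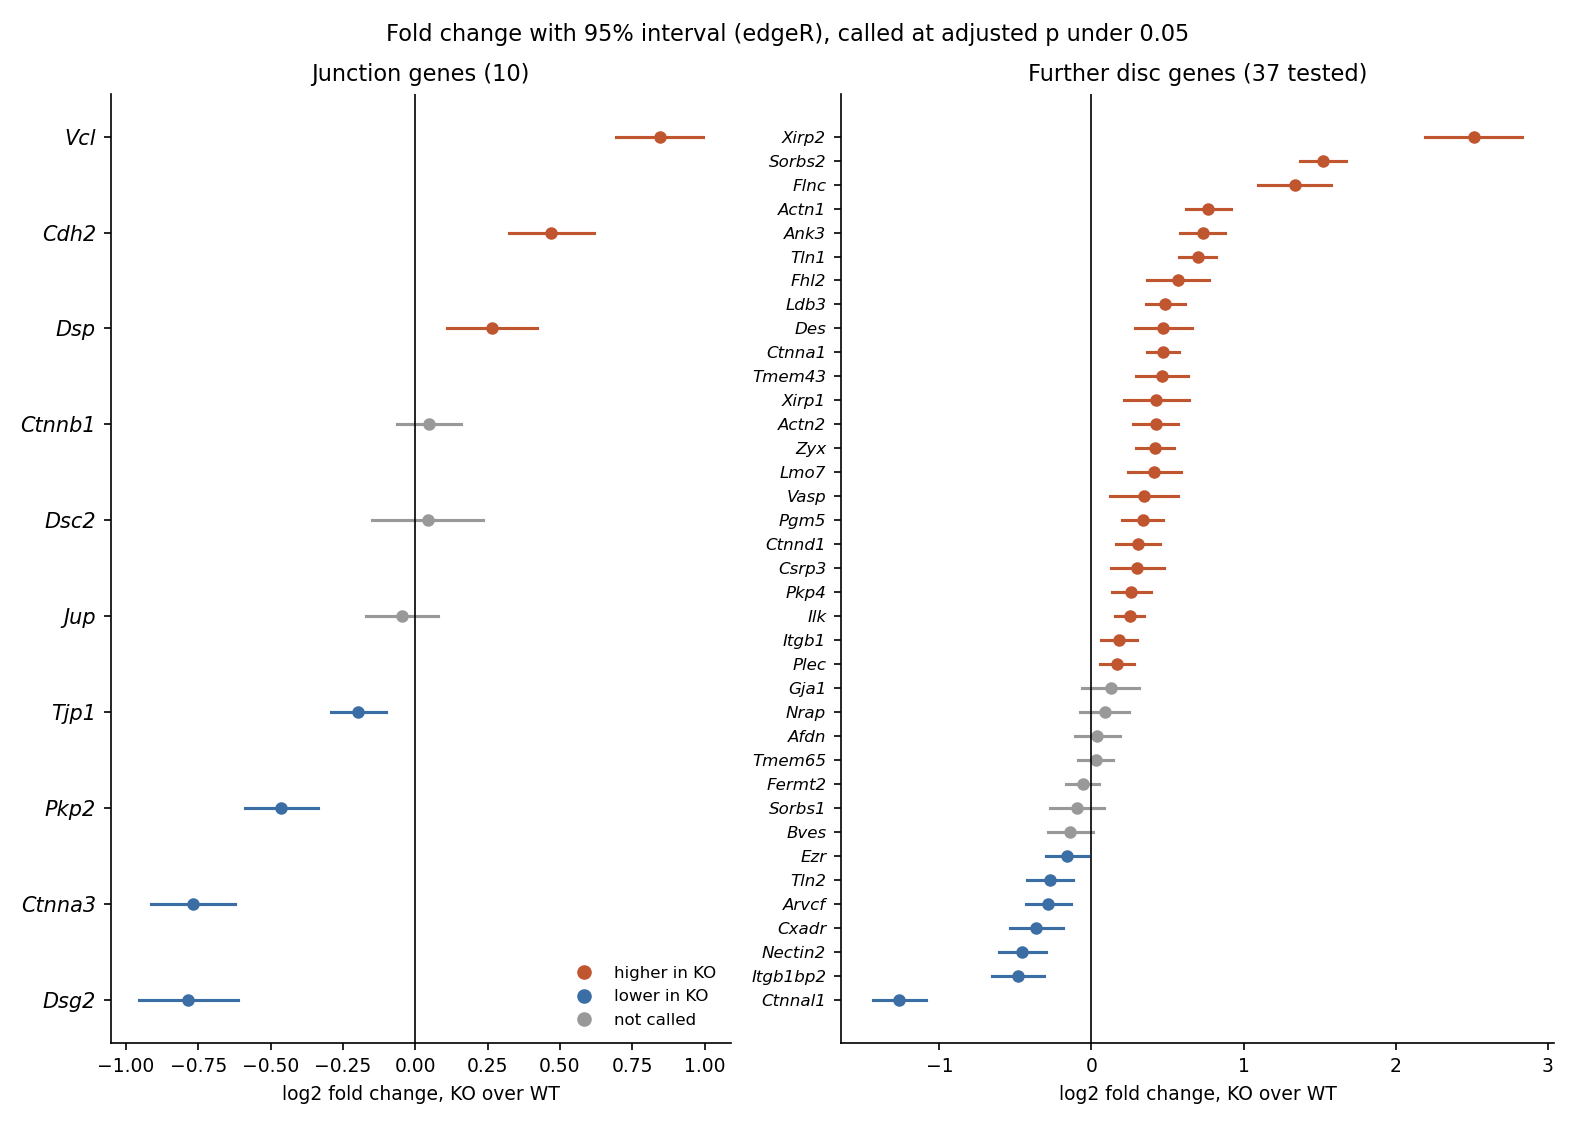
Log2 fold change, KO over WT, with its 95% interval from edgeR (x axis) for the 10 members (left panel) and 37 further disc genes (right panel), each sorted by fold change, with orange for genes called higher in KO, blue for lower and grey for not called. Vcl (0.85), Cdh2 (0.47) and Dsp (0.26) lie to the right of 0, Dsg2 (-0.78), Ctnna3 (-0.77), Pkp2 (-0.46) and Tjp1 (-0.20) to the left, the intervals of Jup, Dsc2 and Ctnnb1 include 0, and on the right 23 genes are orange and 7 blue.

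The sequence just upstream of the transcription start is shown for the members with the largest rise (Vcl), a large fall (Ctnna3), the desmosomal member that rose (Dsp) and the one whose groups overlapped although it was called (Tjp1). Each is the 250 bases before a RefSeq start on GRCm38.p6, read 5′ to 3′ on the gene's own strand. The Vcl window is chr14:20929148-20929397 on the plus strand, the Dsp window chr13:38151044-38151293 on the plus strand, the Tjp1 window chr7:65371245-65371494 on the minus strand, and the Ctnna3 window chr10:63457261-63457510 on the plus strand, which is before one of its 3 listed starts. Capitals mark matches on either strand to the CArG box bound by SRF, the MCAT element CATTCC bound by TEAD factors, and the TCF/LEF element CTTTGA, through which β-catenin acts.
Vcl: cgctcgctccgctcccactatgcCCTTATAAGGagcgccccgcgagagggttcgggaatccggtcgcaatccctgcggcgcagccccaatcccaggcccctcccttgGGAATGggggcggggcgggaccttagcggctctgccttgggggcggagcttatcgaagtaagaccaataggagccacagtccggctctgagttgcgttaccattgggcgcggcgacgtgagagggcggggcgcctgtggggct
Ctnna3: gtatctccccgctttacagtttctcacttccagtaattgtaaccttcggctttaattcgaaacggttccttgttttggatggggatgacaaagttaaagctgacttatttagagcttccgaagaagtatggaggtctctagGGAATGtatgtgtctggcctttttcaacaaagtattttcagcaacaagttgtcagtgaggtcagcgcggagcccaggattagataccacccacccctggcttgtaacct
Dsp: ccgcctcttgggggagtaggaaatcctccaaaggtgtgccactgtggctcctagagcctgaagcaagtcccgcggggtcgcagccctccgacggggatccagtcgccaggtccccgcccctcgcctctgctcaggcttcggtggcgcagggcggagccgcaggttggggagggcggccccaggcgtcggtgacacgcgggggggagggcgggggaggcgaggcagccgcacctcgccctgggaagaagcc
Tjp1: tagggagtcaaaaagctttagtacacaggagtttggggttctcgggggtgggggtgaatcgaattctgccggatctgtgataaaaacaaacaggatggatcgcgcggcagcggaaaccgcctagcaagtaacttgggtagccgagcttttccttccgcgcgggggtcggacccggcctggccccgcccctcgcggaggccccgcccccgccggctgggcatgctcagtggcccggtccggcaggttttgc
The Vcl window held a CArG box, CCTTATAAGG, 227 to 218 bases before the start, a motif found in 1.47% of all 32851 promoter windows of this length, and the reverse of MCAT, GGAATG, 143 to 138 bases before the start. The MCAT letters, present in 12.6% of windows, were also found 109 to 104 bases before this Ctnna3 start. Neither the Dsp nor the Tjp1 window held any of the capital motifs. TCF/LEF letters, present in 13.8% of all windows, were found in 1 of the 9 windows of the 6 members searched, before another Ctnna3 start, and in neither Ctnnb1 window. No windows of Pkp2, Dsg2, Dsc2 and Cdh2 were searched. Of the other motifs searched, the MEF2 site, the GATA site AGATAA and the E-box CACGTG were in none of the 9 windows. Their shares of all windows were 2.92%, 9.99% and 6.02%. The hypoxia response core ACGTG, which the E-box contains, was in 2 member windows (16.6% of all) and the NRF1 site in 1 (0.782% of all). The GC box GGGCGG was in 7 (32.7% of all), though the Ctnnb1 windows overlap and share GC boxes. GC content was 67.2% for Vcl, 72.4% for Dsp, 63.2% for Tjp1 and 44.8% for this Ctnna3 window. The median over all windows was 52.4%. The other Ctnna3 windows were at 67.6% and 45.6%, and neither held the MCAT letters. These matches are of letters only, and no binding was measured.

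In the desmosomal plaque, desmoplakin links the junction to desmin filaments. Dsp (chromosome 13, 37656350 to 37726502, on the C57BL/6NJ assembly that the table's identifiers and coordinates belong to) was between 1078 and 1201 CPM in WT, with a median of 1125 CPM, and between 1211 and 1694 CPM in KO, with a median of 1280 CPM. Every KO library was above every WT library, although the lowest KO library lay close to the highest WT one and KO replicate 6 stood well above the rest. The log2 fold change was 0.26 with a standard error (SE) of 0.07 and an adjusted p of 0.00639 (edgeR), and it was 0.19 without KO replicate 6. Plakophilin-2 is the armadillo protein that ties the cadherin tails to desmoplakin. Pkp2 (chromosome 16, 13483364 to 13543930) was between 226 and 264 CPM in WT, with a median of 253 CPM, and between 156 and 196 CPM in KO, with a median of 186 CPM. The 6 KO libraries all lay below the WT libraries, and the log2 fold change was -0.46 (SE 0.06, adjusted p = 5.92e-06, edgeR). Plakoglobin, encoded by Jup, occurs in both desmosomes and adherens junctions and is the closest relative of β-catenin. Jup (chromosome 11, 106324875 to 106359856) was between 277 and 312 CPM in WT, with a median of 304 CPM, and between 258 and 332 CPM in KO, with a median of 293 CPM. The KO libraries spread to both sides of the WT range, and the log2 fold change was -0.05 with a 95% interval from -0.17 to 0.08 (adjusted p = 0.539, edgeR). Thus the 3 plaque genes comprised 1 that was higher, 1 that was lower and 1 that was not called.

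Among the desmosomal cadherins, desmoglein-2 and desmocollin-2 are the adhesive proteins of the cardiac desmosome. Dsg2 (chromosome 18, 18999978 to 19048627) was between 141 and 158 CPM in WT, with a median of 147 CPM, and between 70.6 and 103 CPM in KO, with a median of 82.4 CPM. No KO library came near the WT range, and the log2 fold change was -0.78 (SE 0.08, adjusted p = 6.22e-07, edgeR). The KO libraries differed more among themselves, with a coefficient of variation of 15.2% against 4.50% in WT, and KO replicates 3 and 6 were the highest. Dsc2 (chromosome 18, 18351072 to 18380902) was between 48.2 and 72.3 CPM in WT, with a median of 56.5 CPM, and between 54.1 and 70.5 CPM in KO, with a median of 58.5 CPM. All KO libraries lay inside the WT range, which was the widest of any member relative to its mean (coefficient of variation 14.6%). The log2 fold change of Dsc2 was 0.04 with a 95% interval from -0.15 to 0.23 (adjusted p = 0.719, edgeR), and it was -0.0095 without KO replicate 1 and -0.011 without WT replicate 3. An unnamed row on the opposite strand shares 6764 bases with the Dsg2 locus, but it held only 1.48 CPM in WT and 1.07 CPM in KO.

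In the adherens junction and area composita, N-cadherin is the classical cadherin of the disc, and its tail binds β-catenin, which also acts as the transcriptional arm of Wnt signalling. Cdh2 (chromosome 18, 14616660 to 14847621) was between 210 and 250 CPM in WT, with a median of 227 CPM, and between 266 and 347 CPM in KO, with a median of 325 CPM. The KO libraries were all above WT, with a log2 fold change of 0.47 (SE 0.07, adjusted p = 2.42e-05, edgeR). Ctnnb1 (chromosome 9, 127206184 to 127237516) was between 557 and 637 CPM in WT, with a median of 608 CPM, and between 583 and 669 CPM in KO, with a median of 620 CPM. The groups overlapped over most of their range, and the log2 fold change was 0.05 with a 95% interval from -0.06 to 0.16 (adjusted p = 0.476, edgeR). αT-catenin joins the cadherin complex to actin and also binds plakophilin-2, and it is used in few tissues besides heart. Ctnna3 (chromosome 10, 65226581 to 66927177) was between 32.4 and 36.0 CPM in WT, with a median of 33.1 CPM, and between 17.3 and 23.3 CPM in KO, with a median of 20.0 CPM. The groups were far apart for their spread, and the log2 fold change was -0.77 (SE 0.07, adjusted p = 9.15e-08, edgeR).

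As the actin anchor, vinculin is recruited to α-catenin and talin under tension and holds actin at both the disc and the costamere. Vcl (chromosome 14, 14210632 to 14313535) was between 134 and 174 CPM in WT, with a median of 146 CPM, and between 244 and 309 CPM in KO, with a median of 262 CPM. Its log2 fold change of 0.85 (SE 0.07, adjusted p = 4.7e-08, edgeR) was the largest of the 10 members in absolute size, and the lowest KO library was far above the highest WT one. The gene on the opposite strand, Ap3m1, shares 2232 bases with the Vcl locus and was at 21.4 ± 1.46 CPM in WT and 21.8 ± 1.40 CPM in KO, a log2 fold change of 0.02. Whether reads were counted by strand is not given, so those on shared bases could fall to either gene or to neither. ZO-1 is the scaffold at the rim of the gap junction plaque and binds connexin-43. Tjp1 (chromosome 7, 69342523 to 69605106) was between 166 and 180 CPM in WT, with a median of 173 CPM, and between 144 and 166 CPM in KO, with a median of 149 CPM. Here 5 of 6 KO libraries lay below all WT libraries while KO replicate 2 reached the bottom of the WT range, and the log2 fold change was -0.20 (SE 0.04, adjusted p = 0.00141, edgeR).

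**Figure D2:**
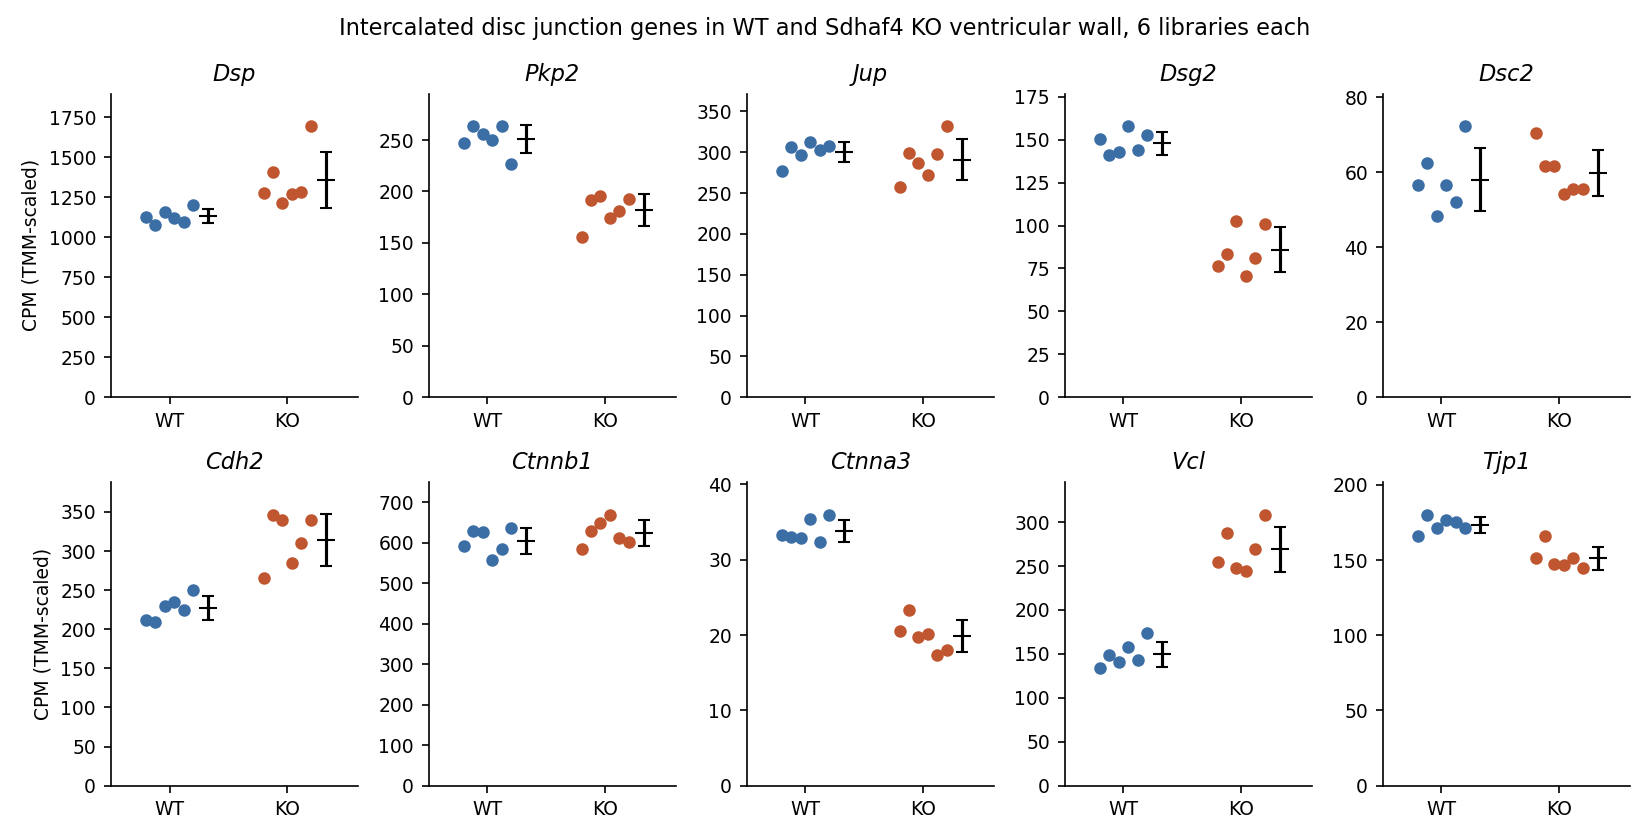
CPM of each member (y axis, one panel per gene) in the 6 WT and 6 KO libraries, with a point per library and a bar at the mean ± SD on the right of each group. Vcl, Cdh2 and Dsp show all KO points above WT, Dsg2, Ctnna3 and Pkp2 all below, and in Tjp1 KO replicate 2 (166 CPM) touches the WT range.

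Variation among libraries was mostly small. The coefficient of variation ran from 2.96% (Tjp1) to 14.6% (Dsc2) in WT and from 5.08% (Ctnnb1) to 15.2% (Dsg2) in KO, and it was larger in KO for 7 of 10 members. The high libraries were not the same for every gene. KO replicate 6 was the highest KO library for Dsp, Jup and Vcl, WT replicate 6 was the highest WT library for 6 of 10 members, and KO replicate 1 was the lowest KO library for 4. Relative to the WT mean, the 6 KO libraries ran from 0.71 to 1.04 on the log2 scale for Vcl and from 0.23 to 0.61 for Cdh2. They ran from -1.07 to -0.53 for Dsg2 and from -0.96 to -0.54 for Ctnna3. The widest KO range was therefore that of Dsg2, while Dsp ran from 0.10 to 0.58.

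**Figure D3:**
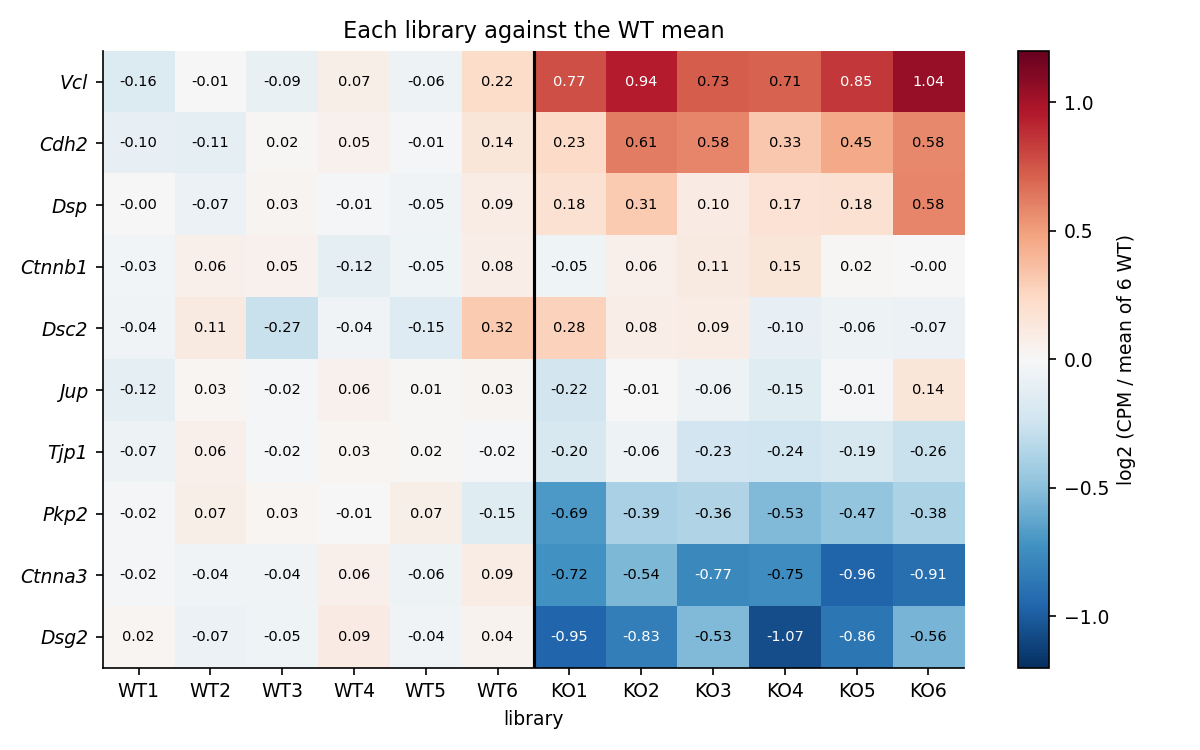
Log2 of CPM over the WT mean for the 10 members (rows) in the 12 libraries (columns), with red above and blue below the WT mean. The KO columns are red throughout for Vcl (0.71 to 1.04) and blue throughout for Dsg2 (-1.07 to -0.53), while Jup, Dsc2 and Ctnnb1 hold both colours.

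Levels per gene length let the members be set against each other. On the deposited FPKM scale (counts divided by gene length and library size), Ctnnb1 was the most abundant member in WT at 403 ± 27.4 FPKM, followed by Jup at 219 ± 10.9 FPKM and Dsp at 192 ± 9.65 FPKM. Pkp2 was at 96.3 ± 4.66 FPKM and the cadherin Dsg2 at 43.0 ± 2.14 FPKM, while Dsc2 (15.1 ± 2.51 FPKM) and Ctnna3 (12.9 ± 0.729 FPKM) were the least abundant. In WT the neighbours Jup and Dsp, Cdh2 and Tjp1, and Dsc2 and Ctnna3 had overlapping ranges. In KO, Dsp (231 ± 28.0 FPKM) stood above Jup (212 ± 16.1 FPKM), Cdh2 (85.5 ± 7.68 FPKM) above Pkp2 (69.8 ± 4.77 FPKM) and Vcl (51.4 ± 4.48 FPKM) above Tjp1 (50.0 ± 3.13 FPKM), but the ranges overlapped within each of these pairs. Vcl had been at 28.6 ± 3.15 FPKM and ranked below Dsg2 in WT, and in KO it ranked above Dsg2 (24.9 ± 3.12 FPKM). The gene length behind the deposited FPKM was shorter than the table's length column for 9 of 10 members, by up to 2.42 times for Ctnnb1, so the order between genes depends on the length used, and the differences between KO and WT do not.

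**Figure D4:**
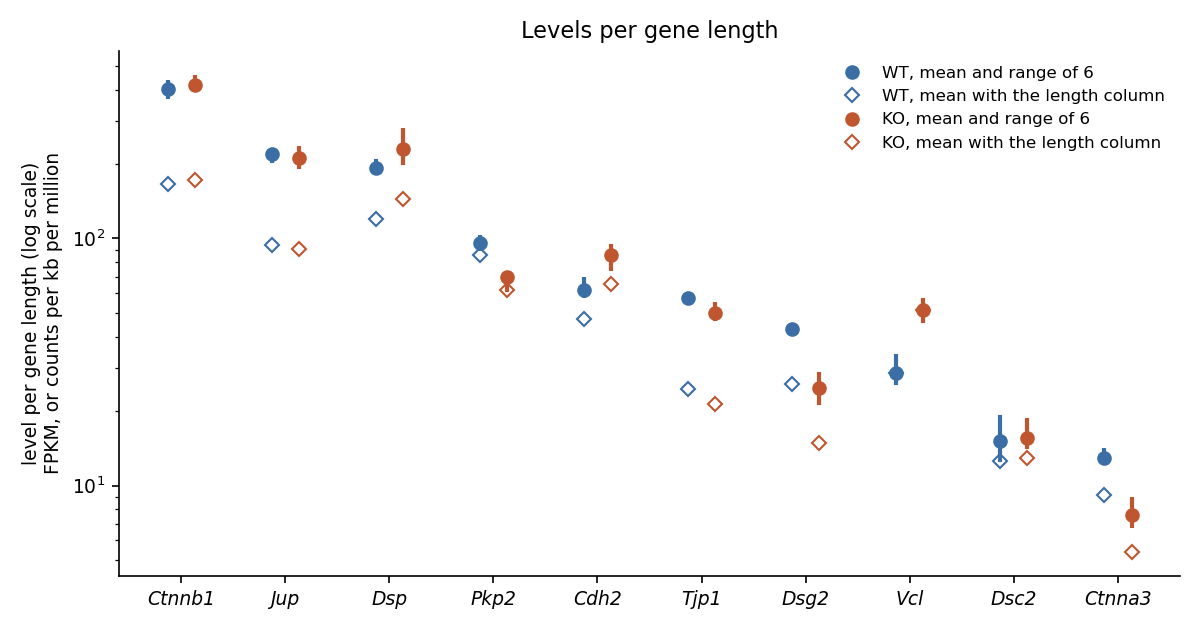
Level per gene length (y axis, log scale) of each member in WT (blue) and KO (orange), with filled circles at the mean and bars over the range of the deposited FPKM of 6 libraries, and open diamonds at the mean computed with the table's length column. By FPKM, Ctnnb1 is highest in both groups (403 FPKM in WT, 417 FPKM in KO) and Ctnna3 lowest (12.9 FPKM and 7.60 FPKM).

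Ratios between members and a paired gene were taken within each library. αE-catenin, encoded by Ctnna1, is the widespread relative of αT-catenin. Ctnna1 was higher in KO (558 ± 25.5 to 772 ± 35.3 CPM, log2 fold change 0.47, adjusted p = 8e-07, edgeR), opposite to Ctnna3. The ratio of Ctnna3 to Ctnna1, on the FPKM scale, was 0.0860 ± 0.00353 in WT and 0.0365 ± 0.00481 in KO (n = 6 each, no overlap), 0.425 times the WT ratio. The ratio of Dsg2 to Dsc2 was 2.89 ± 0.373 in WT and 1.62 ± 0.293 in KO, without overlap. The ratio of Dsp to Vcl was 6.76 ± 0.549 in WT and 4.48 ± 0.240 in KO, also without overlap, although both genes were higher. The ratios of Jup to Ctnnb1 (0.546 ± 0.0384 and 0.512 ± 0.0551) and of Cdh2 to the lipid-anchored T-cadherin gene Cdh13 (0.948 ± 0.0525 and 0.857 ± 0.0688) overlapped between the groups. Cdh13 was higher in KO beside Cdh2 (145 ± 7.87 to 222 ± 13.1 CPM, log2 fold change 0.61, adjusted p = 4.97e-08, edgeR). No test was run on the ratios, which follow from the levels of their genes given above and are no separate evidence. They are ratios in tissue RNA, and the part of the mix of cell types in them was not tested.

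**Figure D5:**
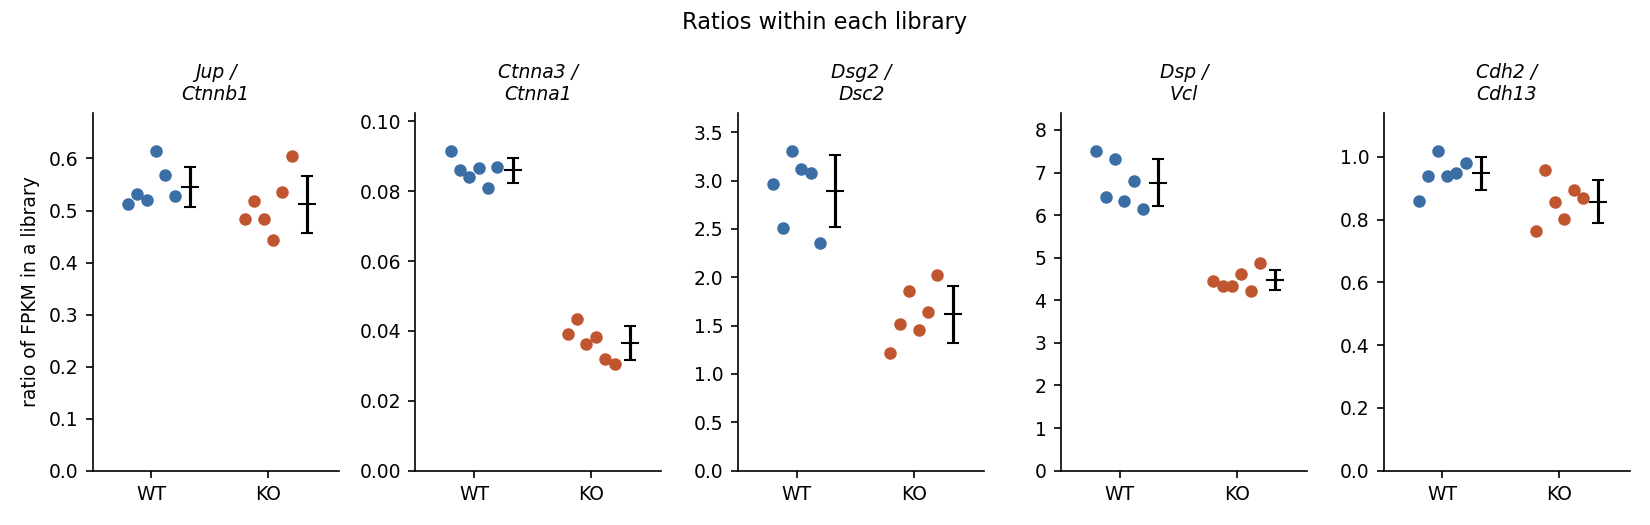
Ratio of FPKM within each library (y axis) for 5 gene pairs, one panel per pair, in the 6 WT and 6 KO libraries with mean ± SD. Ctnna3 over Ctnna1, Dsg2 over Dsc2 and Dsp over Vcl separate the groups, and the other pairs overlap.

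Of 38 further disc genes reported, 37 were tested, of which 23 were higher, 7 were lower and 7 were not called, where 25.6% of all rows tested were higher and 25.5% lower. Their median log2 fold change was 0.30, against 0.00 over all rows. The list was written with earlier results of these data known, so nothing about it as a list is read from these values. The largest rises were in actin-binding proteins, adaptors and a membrane scaffold. Xirp2, which encodes the vinculin-associated disc protein xin-repeat protein 2, rose from 243 ± 12.1 to 1387 ± 356 CPM (log2 fold change 2.51, adjusted p = 1.15e-08, edgeR). Sorbs2 (250 ± 16.8 to 718 ± 77.3 CPM), which encodes a vinculin-binding adaptor, and Flnc (199 ± 22.7 to 504 ± 92.7 CPM), which encodes the muscle filamin, rose with it, as did Actn1 (28.7 ± 1.79 to 48.8 ± 5.15 CPM), a non-muscle α-actinin, and Ank3 (73.8 ± 5.41 to 123 ± 13.7 CPM), which encodes the membrane scaffold ankyrin-G. Among those lower, Ctnnal1, which encodes the α-catenin relative α-catulin, changed most (54.2 ± 6.18 to 22.6 ± 2.22 CPM, log2 fold change -1.26, adjusted p = 2.49e-09, edgeR). Itgb1bp2, the muscle chaperone melusin (164 ± 8.40 to 117 ± 18.4 CPM), Nectin2, an adherens junction adhesion protein (44.4 ± 4.80 to 32.4 ± 2.54 CPM), Cxadr, a disc adhesion protein (49.1 ± 6.20 to 38.2 ± 3.46 CPM), and Arvcf, a relative of p120-catenin (26.4 ± 2.24 to 21.7 ± 1.74 CPM), were also lower, and the libraries of Cxadr and Arvcf overlapped.

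Several members are also used outside cardiomyocytes, among them Cdh2, Vcl, Ctnnb1 and Tjp1. Marker genes of the cells of the ventricle are therefore counted here. Of all rows tested, 51.1% were called, 25.6% higher and 25.5% lower. All 8 of 8 fibroblast markers were higher in KO, and their sum was 1420 to 1670 CPM in WT and 2584 to 4867 CPM in KO. Of 7 endothelial markers, 4 were higher and 1 was lower (sums 1505 to 1651 CPM and 1675 to 2027 CPM). Of 7 mural cell markers, 2 were higher and 1 was lower, 42.9% called (sums 1339 to 1575 CPM and 1391 to 1869 CPM). Of 6 macrophage markers, 1 was higher and 2 were lower, 50% called (sums 200 to 280 CPM and 201 to 319 CPM). The called shares of mural cell and macrophage markers were below that of all rows. Of 10 cardiomyocyte markers, 2 were higher and 5 were lower. The part of these cell types in the members' changes was not tested. Keratinocyte markers, whose cells are also rich in desmosomes, summed to 2.25 to 3.19 CPM in WT and 2.35 to 3.68 CPM in KO.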

How the data were processed

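Counts and FPKM in 12 libraries (6 WT, 6 KO) were analysed. Libraries were made from poly-A mRNA with the TruSeq kit, and by the study's text the tissue was sent to a company for RNA-seq. The submitters' processing notes list HISAT2 2.0.5 and mm10, and HTSeq counted reads per gene. Whether counting used strand is not given in the sources used here. The identifiers are of the C57BL/6NJ assembly, so the genome of the coordinates and that of the notes differ. The authors deposited raw counts per gene and FPKM values, which divide counts by gene length and library size. Their fold changes, p-values and group means were not used. In R 4.3.3, edgeR 4.0.16 was run on the counts with filterByExpr, TMM and the robust quasi-likelihood test, and p-values were adjusted by Benjamini-Hochberg over the 17155 rows kept. The standard error is the absolute fold change over the square root of F. The test was tried on simulated counts with far fewer changed rows than were called here. Of 100 rows changed by a log2 fold of 0.5 it called 76, and of 100 changed by 1 it called 97. It also called 6 unchanged rows. DESeq2 1.42.0 and limma 3.58.1 served as alternatives, with other scalings, filters and left-out libraries. Promoter sequences are RefSeq's on GRCm38.p6 and were not joined by coordinates.

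Members and gene lists were chosen with earlier results of these data known. All members were named. Of the further disc genes, up to 5 in each direction with adjusted p under 0.05, a mean of at least 1 CPM and the largest fold changes were named, and of the member relatives and Wnt genes up to 3. The genes of fixed pairs and Sdhaf4 were also named. Genes Dsp, Ctnnd1, Ank3 and Actn2 were matched through the KEGG annotation and Afdn by an older symbol. Of the listed genes 2, and a pair that held one of them, are not reported here, and the counts of the further disc genes leave them out.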

Additional observations from a re-analysis of the deposited data

Results flagged for a closer look

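Tjp1 in KO replicate 2 stood apart from its group. Its level there was 166 CPM, where the other 5 KO libraries lay between 144 and 151 CPM, and the gap to the nearest was 0.674 of the group's whole range, above Dixon's 95% critical value for 6 samples. Of 20 groups examined (10 members in WT and in KO), 1 was set apart, and chance alone gives about 1.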

How the results depend on the processing

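With upper quartile scaling, no scaling beyond library size, DESeq2's size factors, DESeq2, limma-voom, no filter on low counts, a minimum of 1 CPM in 6 libraries, the replicate block and no unannotated loci, each member kept its direction and its side of the threshold. Log2 fold changes over these 9 settings ran from 0.84 to 0.85 for Vcl and from -0.80 to -0.78 for Dsg2. With 1 library left out at a time (12 fits), 3 members were higher and 4 lower in each fit. The log2 fold change of Dsc2, which was never called, ran from -0.011 to 0.11 and was below 0 without KO replicate 1 (-0.0095) and without WT replicate 3 (-0.011). That of Dsp ran from 0.19 to 0.29. Rows called higher numbered 4087 to 4401 and lower 4162 to 4602. The replicate block gave 4123 rows higher and 4110 lower and changed no member's call. WT and KO libraries with the same number did not deviate together (correlations from -0.16 to 0.02, and in 1 of 6 numbers the WT library matched its own number best). The numbers thus gave no sign of pairing, which these correlations cannot exclude.

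Dividing counts by the table's length column in place of the length behind the deposited FPKM moved 26 of 30 levels and ratios by more than 1 SD, and the longer length is the cause. Levels in WT and KO became 120 and 144 for Dsp, 85.6 and 62.1 for Pkp2, 93.7 and 90.8 for Jup, 25.7 and 14.9 for Dsg2, 12.5 and 12.9 for Dsc2, 47.0 and 65.2 for Cdh2, 167 and 172 for Ctnnb1, 9.19 and 5.39 for Ctnna3, and 24.6 and 21.5 for Tjp1. Ratios became 0.0610 and 0.0259 for Ctnna3 over Ctnna1, 2.08 and 1.16 for Dsg2 over Dsc2, 4.21 and 2.79 for Dsp over Vcl, and 1.48 and 1.34 for Cdh2 over Cdh13. The order changed with it, Dsp standing above Jup and Vcl above Dsg2 and Tjp1 in WT. The 12 libraries bound the precision for changes as small as those of Jup, Dsc2 and Ctnnb1, whose intervals are given above.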

Other observations

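The 23 relatives of the members listed are for the most part used in other tissues or cell types. Of these, 19 had a row and 8 were tested, while 13 lay below 1 CPM and 5 had at most 3 counts in every library. The most abundant were Cdh5, the cadherin of endothelium (400 ± 24.5 CPM in WT and 420 ± 27.6 CPM in KO, not called), and Cdh13, described above. Of those tested, 2 were higher and 3 were lower (62.5% called, against 51.1% of all rows). Cdh4, which encodes R-cadherin, was at 1.08 ± 0.784 CPM in WT and 4.07 ± 0.813 CPM in KO (log2 fold change 1.92, adjusted p = 0.000477, edgeR). Periplakin, the Ppl product and a plakin like desmoplakin, went the other way from Dsp, with 7.57 ± 1.66 CPM in WT and 2.19 ± 1.21 CPM in KO (log2 fold change -1.80, adjusted p = 7.8e-05, edgeR). Cdh20 was at 2.61 ± 0.838 CPM and 0.972 ± 0.346 CPM (adjusted p = 0.000266, edgeR).

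Of 22 Wnt pathway genes listed beside Ctnnb1, 15 were tested, of which 8 were higher, 0 were lower and 7 were not called. The called share was 53.3%, all of it higher, where 51.1% of all rows were called, 25.6% higher and 25.5% lower. Their median log2 fold change was 0.32. This list too was chosen with earlier results of these data known, so nothing about it as a list is read from these values. The largest rises were in Dkk3 (3.17 ± 0.667 to 29.3 ± 6.59 CPM, log2 fold change 3.21, adjusted p = 1.76e-09, edgeR) and Sfrp2 (3.48 ± 1.33 to 16.8 ± 5.22 CPM, log2 fold change 2.27), which encode secreted proteins of families that inhibit Wnt signalling, and in Nkd2 (1.34 ± 0.511 to 5.91 ± 1.41 CPM, log2 fold change 2.13), an intracellular inhibitor. The other 5 that were higher were Sfrp1, Ccnd1, Znrf3, Fzd7 and Lrp6, and the 7 not called were Axin2, Tcf7, Nkd1, Apcdd1, Wif1, Myc and Cd44. Summed fibroblast markers, given above, were also higher in KO, and their part in these values was not tested.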
